A study of Mus musculus with 3 samples.

Results

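The genes described are 10 components of Toll-like receptor and NF-κB signalling in mouse 3T3-L1 cells: the receptors Tlr2, Tlr3 and Tlr4, the co-receptor Cd14, the adaptor Myd88, the NF-κB subunit genes Nfkb1, Nfkb2, Rela and Relb, and the inhibitor Nfkbia. The rule that selects them goes by gene name and uses no measured value, but the set was proposed with earlier results of these data in view. They are 10 of 20140 genes that could be named on the array. All 10 had at least 1 probe, and 12 of the 39429 non-control probes belonged to them, with 2 probes each for Nfkb1 and Relb. 3T3-L1 is an established clonal preadipocyte line that stores fat after it is induced to differentiate. The labels give 3 groups of it, at time points of 2, 8 and 20 days, with no genotype or drug that separates them. The days are read here as days after induction. The agents used for induction are not given in the sources used here. The study asked how gene expression changes as adipocytes enlarge. Total RNA of each day was measured on 1 Agilent 1-colour array, without replicates, and the differences below are therefore descriptions that carry no p-value.

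Toll-like receptors recognise microbial molecules such as lipoproteins, lipopolysaccharide and double-stranded RNA, and signal through adaptors to a kinase complex that marks the inhibitor IκBα for destruction. NF-κB dimers held in the cytoplasm by IκBα then enter the nucleus and switch on genes for chemokines, cytokines and survival factors. Among these targets are genes of the pathway itself, including Nfkbia, which encodes IκBα and so closes a negative feedback loop. Adipocytes are known to carry several of these receptors, and Tlr4 has been studied in them as a sensor linked to inflammation of fat tissue.

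Promoter sequences of 3 of the genes are shown because they belong to a receptor, a subunit and an inhibitor whose transcripts took different courses over the days. They come from RefSeq (build GRCm38.p6, which is not the build of the array design) and run 5′ to 3′ over the 250 bases before the transcription start, with matches to the κB consensus on either strand in capitals. Of the 10 genes, 6 had an entry, with 8 entries in all. Overlapping matches were joined into 1 stretch.
Tlr2, chr3:83841609-83841858, minus strand: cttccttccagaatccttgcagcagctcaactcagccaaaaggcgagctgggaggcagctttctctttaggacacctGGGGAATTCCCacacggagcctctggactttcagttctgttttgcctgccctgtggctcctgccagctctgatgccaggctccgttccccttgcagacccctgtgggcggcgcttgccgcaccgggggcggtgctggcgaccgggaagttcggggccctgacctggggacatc
Nfkb2, chr19:46304487-46304736, plus strand: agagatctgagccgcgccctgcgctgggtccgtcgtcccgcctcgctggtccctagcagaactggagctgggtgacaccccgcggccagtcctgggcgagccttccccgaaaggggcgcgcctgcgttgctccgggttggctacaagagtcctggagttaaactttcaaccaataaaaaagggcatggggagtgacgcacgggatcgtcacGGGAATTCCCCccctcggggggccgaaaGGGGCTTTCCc
Nfkbia, chr12:55492648-55492897, minus strand: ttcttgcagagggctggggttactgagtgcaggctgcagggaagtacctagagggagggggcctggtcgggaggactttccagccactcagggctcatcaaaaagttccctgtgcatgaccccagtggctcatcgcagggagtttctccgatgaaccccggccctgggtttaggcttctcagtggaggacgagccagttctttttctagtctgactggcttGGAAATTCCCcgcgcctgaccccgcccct
The Tlr2 promoter held 1 stretch, GGGGAATTCCC, from base 173 to base 163 before the start. The Nfkb2 promoter shown, the first of its 3 entries, held 2 stretches, GGGAATTCCCC and GGGGCTTTCC, and the Nfkbia promoter held GGAAATTCCC from base 29 to base 20. Tlr3 also had a match, GGGAGTTTCC, while the windows of Myd88 and Rela had none. In all, 4 of the 6 genes had a match in at least 1 entry, and 7.25% of the 32851 promoters in the table have one in a window of this length. The first value counts genes, of which Nfkb2 had 3 entries, and the second counts single entries, so their units differ. These matches are letters in a window and say nothing about binding.

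The 3 arrays lay on 1 slide and were scanned together, with 55.3% to 56.9% of spots well above background and none saturated. A level below is log2 of the processed intensity minus the 75th percentile of its array, which was at an intensity of 662, 636 and 927 on days 2, 8 and 20. The error beside a difference is a technical SD taken from probes printed at least 10 times per array. Each day's SD is divided by the square root of the number of spots averaged for the probe. For Tlr2 and Myd88, printed 10 times, the error is thus that of a mean over spots. It holds the spread between spots and not that between cultures. All 10 adipocyte markers examined were well above background on each day. On day 8 against day 2, 5 of them passed 2-fold on the higher side and 0 on the lower, beside 13.8% and 12.9% of all genes. Adipoq, encoding adiponectin, was at 3.83 and the fatty acid carrier gene Fabp4 at -0.05. Each probe is compared only with itself across days.

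Between day 2 and day 8 the measured components with the largest differences were Cd14 and Tlr4, at 2.96 and 2.25. Tlr2 and Relb followed at 1.22 and 1.21, within technical error of each other, and Relb was above Tlr2 with quantile, cyclic loess and normexp processing and with the mean over probes. Of the 10 genes, 9 were measured on both days, that is, had a probe well above background on each array. At least 2-fold higher on day 8 were 5 of them (Cd14, Tlr4, Tlr2, Relb and Rela), where 13.8% of 12042 measured genes were called higher. At least 2-fold lower was 1, Nfkbia, where 12.9% of all genes were called lower. In either direction that made 6 genes, beside 26.7% of all genes. Tlr3 had only a bound, and Myd88, Nfkb1 and Nfkb2 differed by less than 2-fold. The median difference of the 9 genes was 1.06, beside -0.06 for all measured genes. Whether fewer cells of a kind or less RNA per cell lies behind a lower signal cannot be told apart in bulk RNA.

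Between day 8 and day 20 fewer genes were called than between day 2 and day 8, over the whole array as well as among the 10. All 10 genes were measured, and Tlr2 alone was at least 2-fold higher on day 20, with 3.58% of 12318 genes called higher. None was 2-fold lower, with 1.74% called lower and 5.32% called in either direction. With the arrays scaled on spike-in probes, 3 of the 10 were called higher (Tlr2, Tlr3 and Nfkb1). That scaling also called 2050 of all 12318 measured genes higher. It put the all-gene median difference at 0.61, so the count of 3 goes with a shift of the whole array. With the levels as defined above, the median difference of the 10 genes was 0.05, beside -0.05 for all genes. The same day 8 array stands in both comparisons, so a high or low reading on it moves their values in opposite directions.

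**Figure D1:**
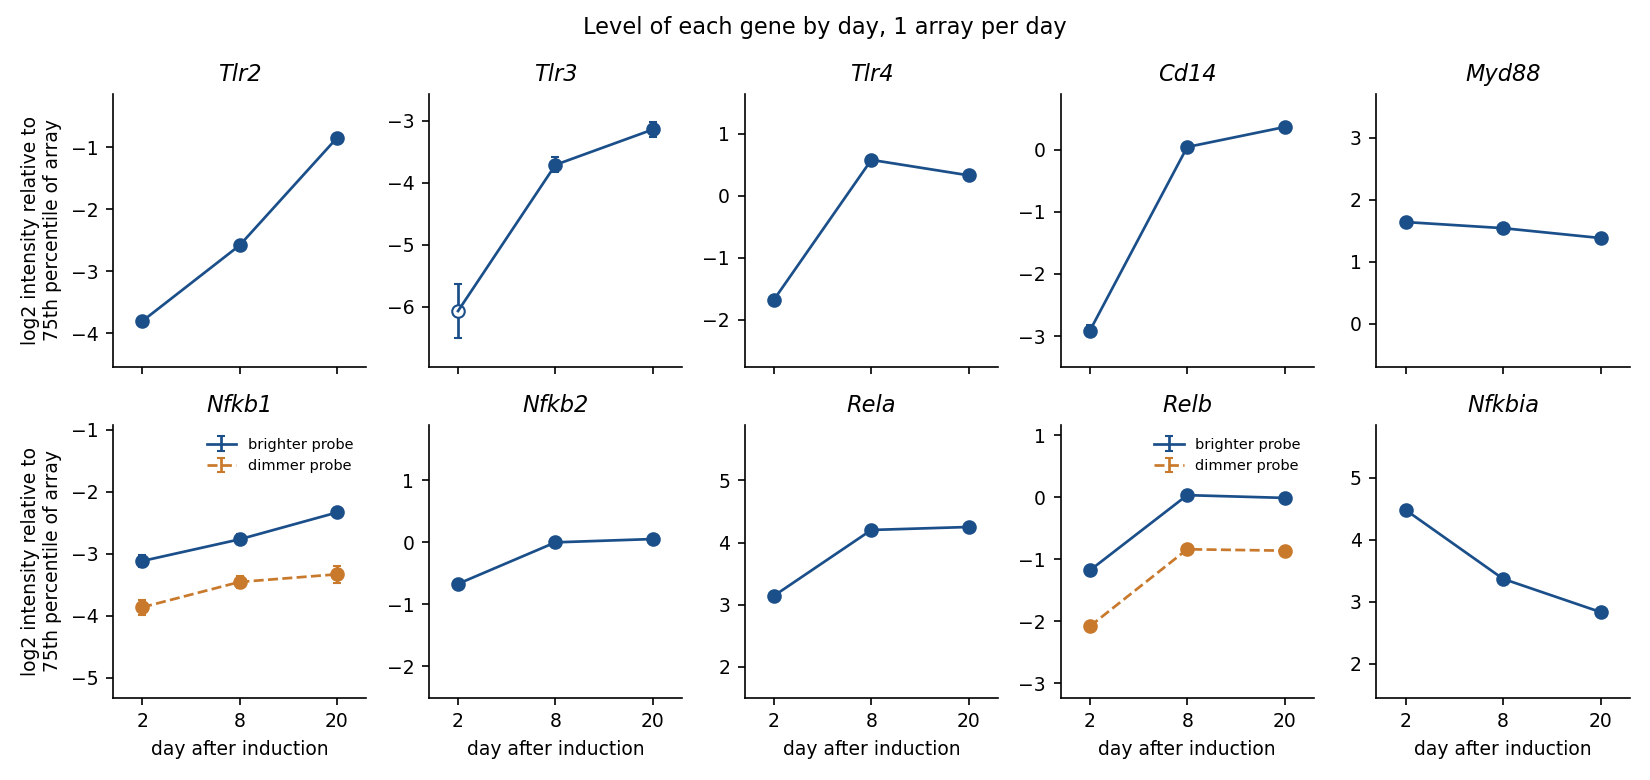
Level of each of the 10 genes (log2 processed intensity relative to the 75th percentile of its array) on days 2, 8 and 20, spaced evenly and not to time. Points are arrays, bars are technical SDs, open points are not well above background, and every panel spans the same number of log2 units. Tlr2 is higher at each later day, Cd14 and Tlr4 step up by day 8, Myd88 stays between 1.38 and 1.64, and Nfkbia is lower at each later day.

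Tlr2 encodes a cell-surface receptor that recognises bacterial lipoproteins together with Tlr1 or Tlr6. Its probe was printed 10 times per array, which gives the closest view of technical error. On day 2 its spots had processed intensities between 40.0 and 57.3 with a median of 46.5. On day 8, with 1 outlier spot left out, the 9 remaining spots lay between 99.8 and 114 with a median of 106, and on day 20 the 10 spots lay between 492 and 542 with a median of 515. No spot of one day overlapped those of another, also after scaling. The level was -3.80, -2.58 and -0.85 on days 2, 8 and 20. Tlr2 was 2.33-fold higher on day 8 than on day 2 (log2 difference 1.22, technical SD 0.0441) and 3.32-fold higher on day 20 than on day 8 (1.73, SD 0.0323). The day 20 difference was larger than that of 99.1% of measured genes. The spots of day 2 were dim, and with another background correction (normexp) the day 8 difference was 0.71, under 2-fold, while that of day 20 was 1.25.

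**Figure D2:**
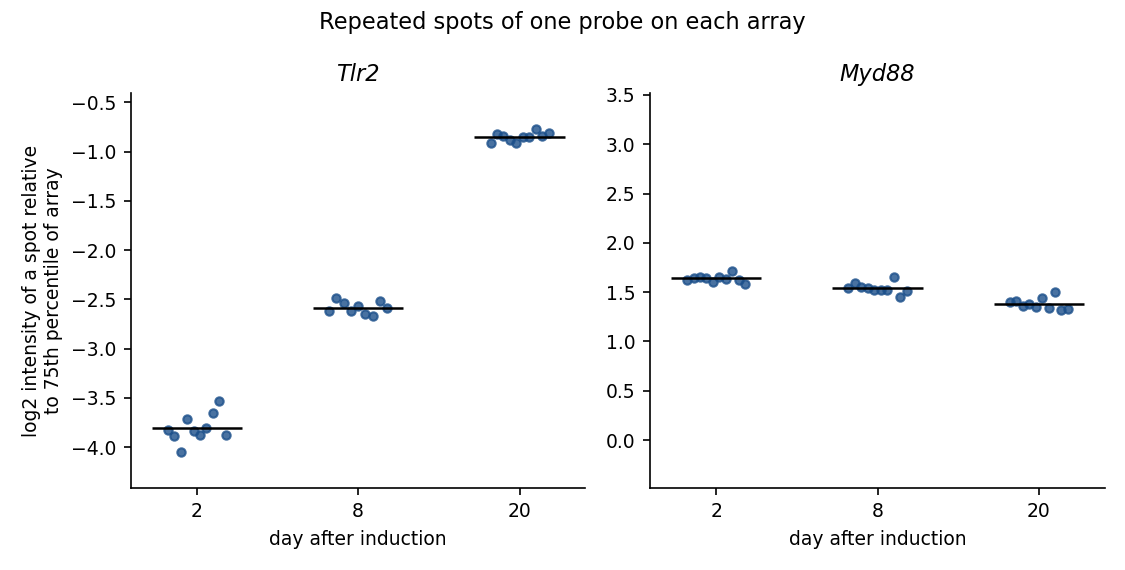
Every spot of the Tlr2 probe (left) and the Myd88 probe (right) on the arrays of days 2, 8 and 20, as log2 intensity relative to the 75th percentile of the array. Points are spots, lines are means, and both panels span the same number of log2 units. Tlr2 spots form 3 separate groups, while Myd88 spots of neighbouring days overlap.

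Tlr4 encodes the receptor for lipopolysaccharide, and Cd14 the membrane-anchored co-receptor that hands lipopolysaccharide to it. Tlr4 had processed intensities of 207, 950 and 1165 on days 2, 8 and 20, and levels of -1.67, 0.58 and 0.33. Day 2 was the low day and days 8 and 20 were close: the difference was 2.25 (SD 0.0804, 4.77-fold) on day 8 against day 2 and -0.25 (SD 0.0759) on day 20 against day 8. The small second difference turned to 0.41 with the arrays scaled on spike-in probes. Cd14 had intensities of 87.7, 656 and 1195 and levels of -2.92, 0.05 and 0.37. It was 7.79-fold higher on day 8 than on day 2 (2.96, SD 0.106), above 97.5% of measured genes, and higher by 0.32 (SD 0.0768) on day 20 than on day 8. That second difference was 0.98 with spike-in scaling. Cd14 had the widest range over the days among the 9 genes measured on all 3, 3.28.

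Tlr3 encodes the endosomal receptor for double-stranded RNA, which signals through Ticam1 and not through Myd88. Its probe had intensities of 9.88, 48.6 and 105 on days 2, 8 and 20 and was not well above background on day 2. Against the lowest signal well above background on the day 2 array, Tlr3 was higher on day 8 by at least 3.96-fold and on day 20 by at least 5.88-fold. Between day 20 and day 8, both measured, the levels were -3.14 and -3.71 and the difference 0.57 (SD 0.175). That value was 0.03 with normexp and 1.23 with spike-in scaling, so the sign held and the size was not settled.

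Myd88 encodes the adaptor shared by the interleukin-1 receptor family and the Toll-like receptors other than Tlr3. Its probe was also printed 10 times, and its median intensity was 2065, 1841 and 2396 on days 2, 8 and 20. After scaling, the spots lay between 1.59 and 1.71 on day 2, between 1.45 and 1.65 on day 8 and between 1.32 and 1.50 on day 20. Neighbouring days overlapped, and days 20 and 2 did not. The differences were -0.10 (SD 0.0225) on day 8 against day 2 and -0.16 (SD 0.0231) on day 20 against day 8. Each was several times its error, which is that of a mean over spots. Single spots had SDs of 0.0343, 0.0530 and 0.0574 on days 2, 8 and 20. Both differences were smaller than the effect of scaling, since the first turned to 0.07 with cyclic loess and the second to 0.50 with spike-in scaling. The adaptor therefore had no settled direction.

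Rela and Relb encode the NF-κB subunits that carry transactivation domains, Rela in the classical pathway and Relb in the alternative one. Rela was bright, with intensities of 5845, 11709 and 17648 on days 2, 8 and 20 and levels of 3.14, 4.20 and 4.25. It was 2.09-fold higher on day 8 than on day 2 (1.06, SD 0.0656) and differed by 0.05 (SD 0.0688) on day 20 against day 8. Under the alternatives that second difference went up to 0.28 (cyclic loess) and 0.71 (spike-in scaling), so it was not settled. The first difference was 0.95 with the arrays scaled on their medians, just under 2-fold. The brighter probe of Relb had levels of -1.18, 0.03 and -0.01, a difference of 1.21 (SD 0.0752) on day 8 against day 2 and -0.04 (SD 0.0791) on day 20 against day 8. Its dimmer probe gave 1.24 and -0.02, so both probes placed the step before day 8. Spike-in scaling gave 0.62 for Relb on day 20 against day 8. With normexp the day 8 difference of Relb was 0.98, again just under 2-fold.

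Nfkb1 and Nfkb2 encode the precursor subunits, which act as inhibitors until they are processed into DNA-binding partners of Rela and Relb. Nfkb2 had levels of -0.67, -0.003 and 0.05 on days 2, 8 and 20, a difference of 0.67 (SD 0.0745) on day 8 against day 2 and 0.05 (SD 0.0788) on day 20 against day 8, which became 0.71 with spike-in scaling. Nfkb1 was dim, with intensities of 76.3, 93.3 and 184 for its brighter probe and 45.5, 58.0 and 92.0 for its dimmer one. On day 8 against day 2 the probes gave 0.35 (SD 0.124) and 0.41 (SD 0.156). On day 20 against day 8 they gave 0.43 (SD 0.111) and 0.12 (SD 0.167), the second within 1 technical SD of 0, so the probes did not settle this step. All 4 subunit genes had a positive difference on day 8 against day 2 under each of the 10 alternatives run.

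Nfkbia, encoding IκBα, was the component more than 2-fold lower on day 8 than on day 2. Myd88, as given above, also had small negative differences. The intensities of Nfkbia were 14780, 6580 and 6622 on days 2, 8 and 20, and its levels 4.48, 3.37 and 2.84. Nfkbia was 2.16-fold lower on day 8 than on day 2 (-1.11, SD 0.0657) and the difference was -0.53 (SD 0.0707) on day 20 against day 8. Only 10.8% of measured genes had a lower difference on day 8 against day 2. The first difference was -0.92 with quantile normalization and -0.94 with cyclic loess, under 2-fold with the same sign. The second turned to 0.13 with spike-in scaling.

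**Figure D3:**
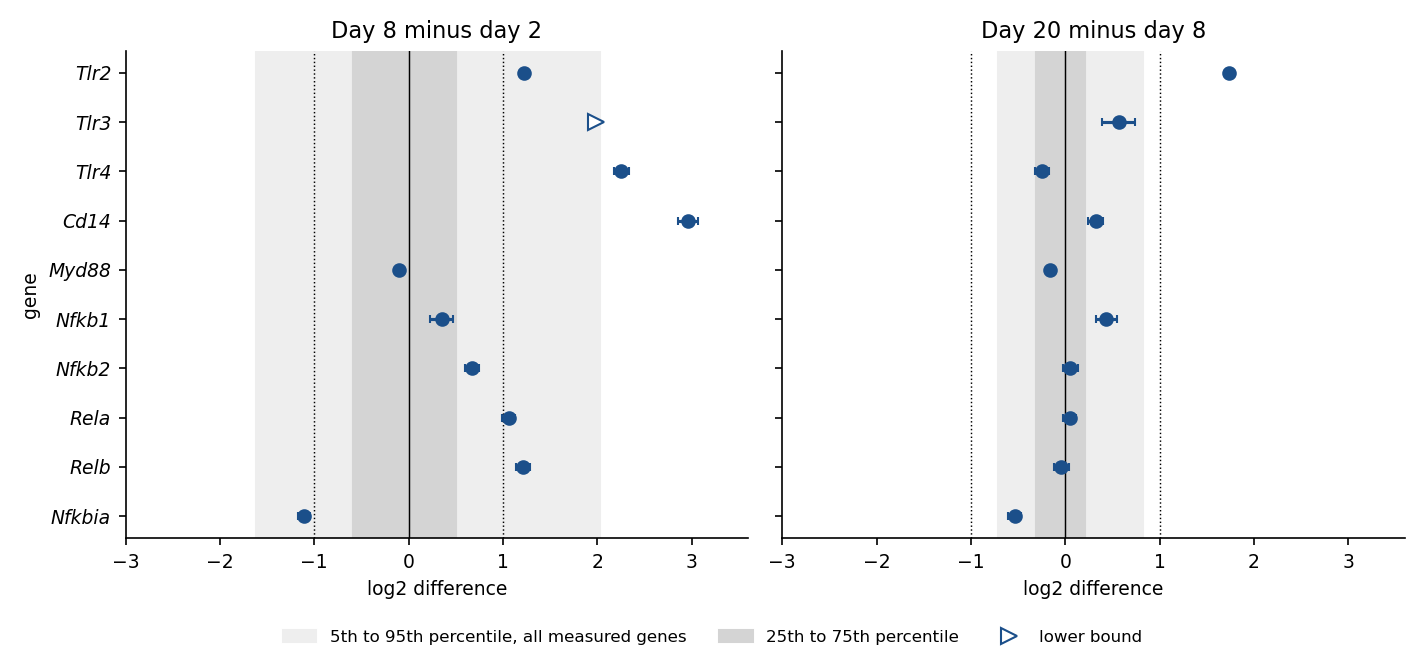
Log2 difference of each of the 10 genes on day 8 minus day 2 (left) and day 20 minus day 8 (right), with technical SDs as bars. Grey bands run between low and high percentiles of all measured genes, as the legend gives them, dotted lines mark 2-fold, and the open triangle is a lower bound for Tlr3. Cd14 and Tlr4 lie beyond the wider band on day 8, and Tlr2 does so on day 20.

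Over the whole course, 9 genes were measured on days 20 and 2. Of these, 5 passed 2-fold on the higher side, as 15.5% of 11885 genes did, and 1 on the lower side, as 17.0% did. In either direction it was 6 genes, beside 32.4% of all genes. Cd14 was 9.73-fold higher, Tlr2 7.75-fold and Tlr4 4.01-fold, and Nfkbia was 3.12-fold lower (-1.64, SD 0.0662). On the log2 scale the alternatives ran between 2.54 and 3.97 for Cd14 and between 1.96 and 3.64 for Tlr2, lowest with normexp and highest with spike-in scaling, and between 1.76 and 2.69 for Tlr4. Rela and Relb were higher by 1.11 and 1.17. For Cd14 and Tlr4 the larger part of the course lay before day 8 and for Tlr2 after it, also with normexp and with spike-in scaling. Relb was at 0.94 with normexp, and Nfkbia at -0.96 with spike-in scaling.

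The day pattern most like that of Cd14, the gene with the widest range, was sought among 11806 other genes well above background on all 3 arrays. Likeness was the Euclidean distance between the 3 levels after each gene's own mean was subtracted. The 5 nearest were Dusp23, a phosphatase gene (distance 0.0271), Ddx58, encoding a cytoplasmic sensor of viral RNA (0.0736), Ttc12 (0.0822), Dglucy (0.0874) and Clec14a, a membrane lectin (0.0934). Dusp23, for example, was at -3.48, -0.53 and -0.23 on days 2, 8 and 20. With 3 arrays such likeness describes only these libraries.

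The other Toll-like receptors were mostly below detection. Of 9 others, 5 (Tlr1, Tlr5, Tlr8, Tlr11 and Tlr12) were not well above background on any array. Tlr6, the partner of Tlr2, was at background on day 2 and higher on day 8 by at least 5.38-fold. Tlr7, Tlr9 and Tlr13 were measured and under 2-fold in both comparisons, with Tlr7 at 0.58 on day 8 against day 2 and -0.40 on day 20 against day 8.

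Among 11 other co-receptor and trafficking genes, 2 of 8 measured were at least 2-fold higher on day 8 than on day 2 and 1 was lower, beside 13.8% and 12.9% of all genes. Unc93b1, which escorts nucleic acid-sensing receptors to endosomes, was at 2.05 (SD 0.0985), and Ly96, the extracellular partner of Tlr4 in binding lipopolysaccharide, at 1.23 (SD 0.083). Hmgb1, a chromatin protein that can also act as a ligand, was at -1.01, a call lost with quantile, cyclic loess and spike-in scaling and with the mean over probes. None of 8 differed by 2-fold between day 20 and day 8, beside 5.32% of all genes. The parts of the lipopolysaccharide receptor, Tlr4, Cd14 and Ly96, were thus all higher on day 8. Counting Cd14, 3 genes of this list passed 2-fold on the higher side on day 8, and 2 with normexp.

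The adaptors and kinases between receptor and NF-κB were mostly under 2-fold. On day 8 against day 2, 21 others could be compared: 1 was at least 2-fold higher, 2 were lower and 18 lay in between, with a median of -0.16, beside 26.7% of all genes called in either direction. The higher one was Ticam1, the adaptor of Tlr3, at 1.44 (SD 0.0792). The lower ones were the ubiquitin-conjugating enzyme gene Ube2n at -1.21 and the ubiquitin ligase gene Peli1 at -1.02. With quantile, cyclic loess and spike-in scaling only 1 gene of the list was at least 2-fold lower. Peli3, related to Peli1, was higher on day 8 by a bound of at least 5.30-fold. Peli3 was also higher on day 20 than on day 8, by 1.15, a call lost with normexp. Of the kinase complex, Ikbkg, its regulatory subunit, was at 1.40 on day 8 against day 2 and was the only one past 2-fold of the 4 other measured genes of its list, while Rel was not well above background on any array.

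The inhibitors did not share one direction. Of 12 other measured genes that restrain NF-κB or encode related IκB proteins, 4 were at least 2-fold higher on day 8 than on day 2 and 0 lower, beside 13.8% and 12.9% of all genes. Tnfaip3, a ubiquitin-editing enzyme that ends NF-κB signalling, was at 2.64 (SD 0.099), its binding partners Tnip1 and Tnip2 at 2.12 and 1.77, and Bcl3, a nuclear IκB protein, at 1.80. These are known feedback or binding partners of the same pathway as Nfkbia, which was at -1.11. On day 20 against day 8, 1 of 12 was past 2-fold, Nfkbiz, another nuclear IκB protein, at -1.36 (SD 0.153), beside 5.32% of all genes. That call was lost with normexp and with spike-in scaling, which instead put 2 genes of the list past 2-fold on the higher side. Over the whole array, spike-in scaling did so for 2050 of 12318 genes. Nfkbiz was also lower on day 8 than on day 2, by -0.99. Both Nfkbia and Nfkbiz thus had negative differences in each comparison, that of Nfkbia on day 20 turning positive with spike-in scaling.

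Known NF-κB targets were measured in 16 of 28 cases on days 8 and 2. On the higher side of 2-fold on day 8 were 7 of them, on the lower side 2, with a median of 0.84, beside 13.8%, 12.9% and -0.06 for all genes. With normexp it was 5 and 1, beside 1271 and 1196 of 12039 genes. Ccl2, a monocyte-attracting chemokine, was at 4.25, the adhesion molecule gene Vcam1 at 2.54 and the macrophage growth factor gene Csf1 at 2.41, while the lipocalin gene Lcn2 was at -6.42. As bounds, Cxcl5, a neutrophil-attracting chemokine, was at least 29.0-fold higher and the serum amyloid gene Saa3 was lower, also as a bound. On day 20 against day 8, 6 of 18 were higher and 1 lower, led by Cxcl10 at 2.01, Cxcl5 at 1.58 and Csf1 at 1.44, against Nos2 at -1.37, where 3.58% and 1.74% of all genes were called. With normexp 3 were higher and 0 lower, and with spike-in scaling 8 and 0, so the call of Nos2 was lost under both. Over all genes, normexp called 206 of 12316 higher and 100 lower, and spike-in scaling 2050 of 12318 higher and 21 lower. Tnf, Il1b, Icam1, Cxcl2, Traf1, Csf2 and Mmp9 were not well above background on any array. The list of the TNF and interleukin-1 families holds receptors, ligands and adaptors. Of its 8 measured genes, 0 were higher and 2 lower on day 8 than on day 2, beside 13.8% and 12.9% of all genes. The lower ones were Tnfrsf1b at -1.47 and Il1rap at -1.32. Both calls were lost with normexp and 1 of them with the mean over probes. On day 20 against day 8 Il1rap was higher by 1.16, also lost with normexp and with the mean over probes. Spike-in scaling put 4 genes of the list past 2-fold on the higher side, where 2050 of all 12318 measured genes were too.

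**Figure D4:**
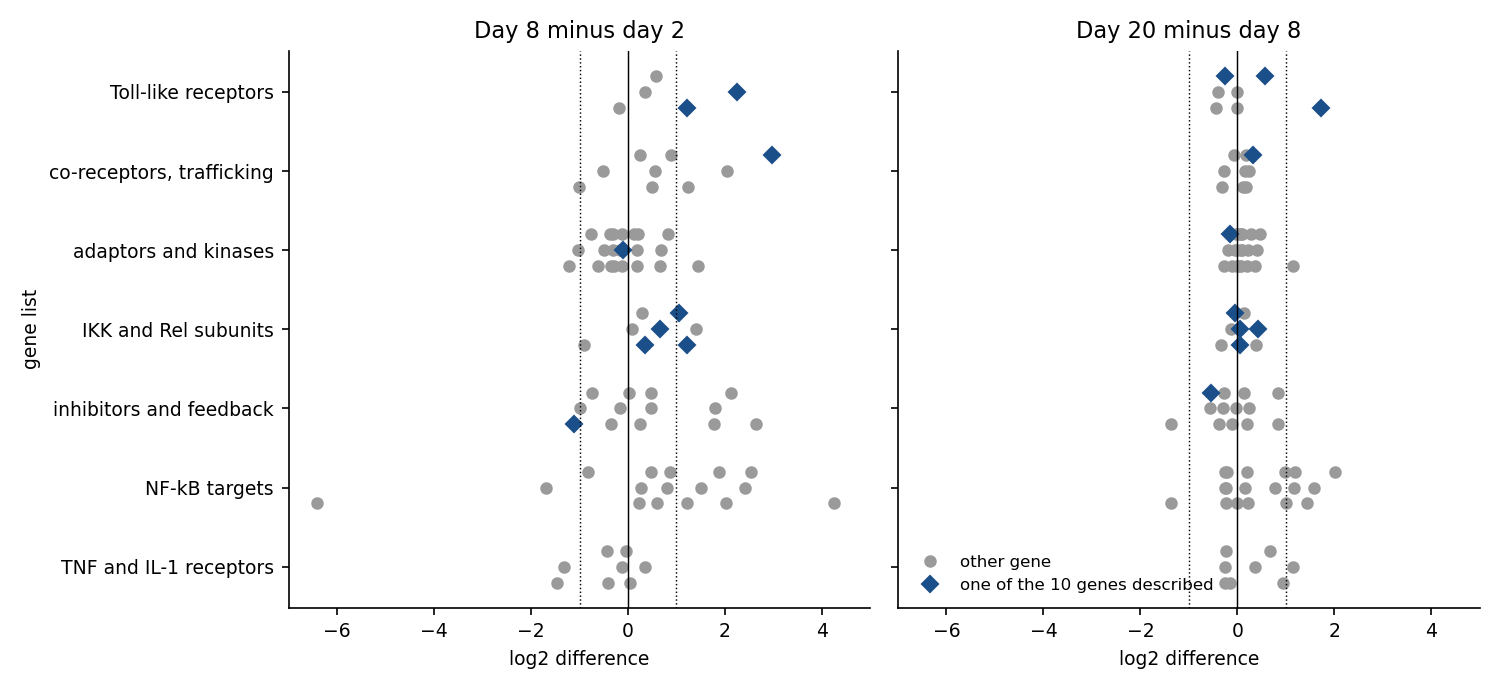
Log2 difference of every measured gene of 7 pathway lists on day 8 minus day 2 (left) and day 20 minus day 8 (right). Diamonds are the genes described here, circles the other genes of each list, and dotted lines mark 2-fold. Adaptors and kinases cluster near 0, while NF-κB targets spread from -6.42 to 4.25 on day 8.

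Cd14 and several Toll-like receptors are also used as marks of macrophages, so markers of that and other blood cells were read on the same arrays. Of 15 macrophage markers with a probe, 6 were well above background on day 2, 5 on day 8 and 5 on day 20. Adgre1, Ptprc, Mrc1, Cd163, Lyz2, Cx3cr1, Tyrobp, Cybb and Spi1 were not well above background on any array. The summed level of the list, in multiples of each array's 75th percentile, was 9.31, 10.8 and 5.32 on days 2, 8 and 20, of which Itgam alone made 8.29, 9.87 and 4.50. None of the 5 measured on days 8 and 2 was past 2-fold, beside 26.7% of all genes. On day 20 against day 8 Itgam was at -1.13. Of 7 neutrophil and monocyte markers, 3 were well above background on each day. The summed level was 58.8, 41.0 and 23.6, of which Csf3r alone made 53.3, 37.9 and 22.1. On day 8 against day 2 S100a8 was at -1.11 and Elane at 1.34. Other macrophage markers were detected on all 3 arrays, namely Csf1r, Itgam, Aif1, Mertk and Fcer1g. On day 8 against day 2 they were at -0.01, 0.25, 0.11, -0.10 and -0.68, in that order. Any part of blood cells in the difference of Cd14 was not tested. Summed levels were 1.58, 1.27 and 1.04 for lymphocyte markers, 4.66, 4.30 and 2.77 for endothelial markers, 217, 167 and 293 for preadipocyte and fibroblast markers, and 794, 1789 and 1229 for adipocyte markers on days 2, 8 and 20. The day 2 sum of the preadipocyte and fibroblast list was mostly S100a4 (127), which was at -2.07 on day 8 against day 2. By genes, 4 of 9 measured passed 2-fold on the higher side on day 8 and 1 on the lower, and the median was 0.77. Over all genes these were 13.8%, 12.9% and -0.06. The part of the preadipocyte and adipocyte shifts in the differences of the 10 genes was not tested.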

How the data were processed

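The members and gene lists were chosen with earlier results of these data known. Total RNA of 3T3-L1 cells was measured on 3 arrays, 1 per day. The deposited intensity values are spot brightness from Agilent Feature Extraction (version 10.7.1.1, a version that the submitters' processing notes name). The deposited processed intensity stands beside separate median and background-subtracted signals, per the file headers, and how the software made it is not given in the sources used here. Its 75th percentile differed between arrays. Other deposited columns mark spots as well above background, saturated or outliers, per the file headers. In the series table the authors gave log2 values, which match log2 processed intensity plus 1 constant per array (-9.37, -9.31 and -9.86 on days 2, 8 and 20, to within 0.01 for 100% of probes printed once), with column medians of -4.80, -4.69 and -4.89, so their scale and centring are known.

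From these, control and outlier spots were left out, log2 values of spots of 1 probe were averaged, and the 75th percentile over non-control probes was subtracted. Of 39429 probes, 26575 were named through RefSeq accessions without versions (assembly GRCm38.p6). A gene took its brightest probe by the mean over arrays. A difference needed the probe well above background on both arrays, and was called at 2-fold. Otherwise a bound was set against the lowest signal well above background on that array, or the dim probe's own value if larger. Technical SDs come from probes printed at least 10 times, in 8 signal bins, divided by the square root of the number of spots averaged. The rule for named genes was all members, per list and comparison up to 4 genes past 2-fold with the largest differences plus bounds of at least 4-fold, and the 5 genes nearest to the member with the widest range. Detection and marker genes are named as well. Scaling and calling were run on simulated arrays whose planted changes lay well past 2-fold. That run did not cover outlier removal, gene naming, the choice of probe, bounds or technical SDs. Alternatives were scaling on the median or on 8 spike-in probes, quantile and cyclic loess normalization, normexp (offset 50, on the median signal, as the mean signal was not used here), the series table, other detection rules, the mean over probes and outlier spots kept. Python 3.11.15, R 4.3.3 and limma 3.58.1 were used. The number of arrays limits the precision.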

Additional observations from a re-analysis of the deposited data

How the results depend on the processing

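No paired analysis was possible because each day has 1 array. The 10 alternatives were applied to the 28 member differences that could be measured. Of these, 22 kept their sign under all 10 and 18 kept their side of 2-fold. No difference past 2-fold changed sign. The sign changed for 6: Myd88 in all 3 comparisons, and Tlr4, Relb and Nfkbia on day 20 against day 8. The number of members at least 2-fold apart on day 20 against day 8 was 1 and became 3 with spike-in scaling (Tlr2, Tlr3 and Nfkb1), under which the all-gene median stood at 0.61 in place of -0.05. It stood at 0.15 with array medians. On day 20 against day 2, spike-in scaling took Nfkb1 to 1.47 and Nfkb2 to 1.41. Over all genes, 655 were called on day 20 against day 8, and 2071 with spike-in scaling, 2009 without a filter on dim probes, 1436 with the positive and significant mark and 306 with normexp. The share of called genes that were higher was 67.3%, but 83.9% with median scaling, 82.6% with cyclic loess, 99.0% with spike-in scaling, 34.5% without the filter and 40.5% with the mark. On day 20 against day 2, 3855 genes were called, and 5791 without the filter, and the higher share was 47.7%, but 64.9% (cyclic loess) and 84.3% (spike-in). Dim probes (Tlr3, Nfkb1 and Tlr2 on day 2) limit the sizes given for them. The causes were not tested.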
